A study of Mus musculus with 6 samples.

Results

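Glycolytic enzymes were followed here through 10 genes, Gpi1, Pfkl, Pfkp, Aldoa, Tpi1, Gapdh, Pgk1, Pkm, Ldha and Ldhb, out of 16538 genes with values in inguinal white adipose tissue (iWAT) of cold-acclimated mice. They were chosen by gene symbol as the enzymes of the pathway from glucose 6-phosphate to lactate, and all 10 had values in each sample. RNA from the whole fat pad was sequenced in bulk in 3 control samples and 3 samples of adipocyte-specific Nrg4 knockout (NRG4-AKO, here AKO) mice. The control samples carry the genotype label wt, and the study describes control mice as fl/fl littermates, that is, mice with the floxed Nrg4 allele and no Cre. In AKO mice the floxed allele was deleted by Cre under the Adiponectin promoter, which is active in fat cells, so that other cells of the pad keep the gene. All 6 samples came from cold-exposed mice, for 10 days by the labels and 12 days by the study's text, at 8°C on a chow diet, and each sample was RNA pooled from 2 mice. There was no warm group, and age and sex of these mice are not given in the sources used here. The comparison asks whether glycolytic enzyme transcripts in cold-exposed iWAT differ when adipocytes lack Nrg4, a secreted ligand of the epidermal growth factor family enriched in brown and beige fat.

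Glycolysis converts glucose to pyruvate in the cytosol and yields ATP and NADH. Lactate dehydrogenase then turns pyruvate into lactate and regenerates NAD, and its A and B subunits favour opposite directions of that reaction. In white adipocytes glycolysis supplies glycerol 3-phosphate and acetyl-CoA for triglyceride synthesis, in beige adipocytes it is active alongside fat oxidation, and fast skeletal muscle carries the pathway at very high levels with several isoforms of its own.

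Of the 10 enzymes, Ldhb and Pfkl were the pair whose 3 AKO values all lay below the 3 control values. Ldhb was 33.4% lower in AKO iWAT and Pfkl 25.4% lower, while the means of the other 8 differed by less than 10% in either direction. None of the 10 passed the test across all genes, which was limma on log2(normalized count + 1) with a Benjamini-Hochberg adjusted p under 0.05. That threshold was passed by 0.0144% of the 13855 genes tested. An unadjusted p under 0.05 was reached by 2 of the 10, Ldhb and Pfkl, both lower, where 9.1% of all genes had such a p and 4.69% had it and were lower. Groups did not overlap for the same 2 enzymes, against 14.5% of all genes without overlap in either direction and 8.31% with AKO lower. On the whole reads recovered from the normalized counts, DESeq2 called 1 of the 10, Ldhb, with 0.998% of genes called, and edgeR called 0, with 0.0216% of genes called. Ldhb and Pfkl were again the 2 with an unadjusted p under 0.05, against 6.25% of genes in DESeq2 and 9.24% in edgeR. Fitted differences were negative for 8 of the 10 and positive for 2, with a median log2 fold change of -0.05, against a median of 0.01 and 48.1% negative over all genes. A lower value of a transcript in such bulk samples can come from fewer cells that carry it or from less of it per cell, which cannot be told apart here.

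**Figure D1:**
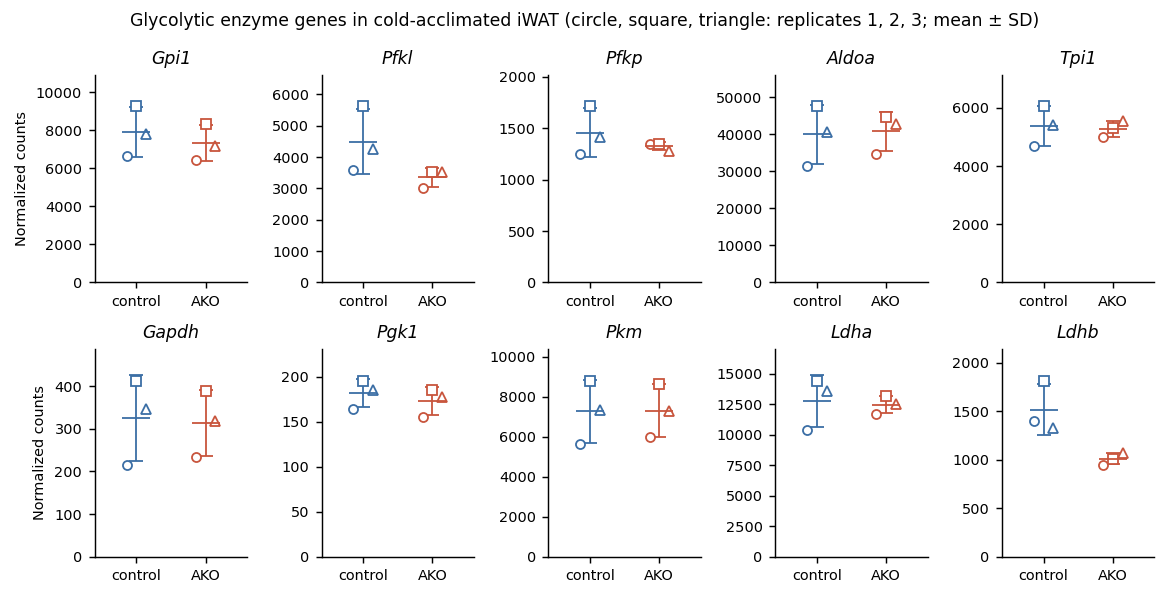
Normalized counts of the 10 enzymes (y axis from 0, 1 panel per gene) in control and AKO samples (x axis), with 1 symbol per sample, the replicate number given by its shape, and bars for the mean ± SD of 3 samples. Groups separate in the Pfkl and Ldhb panels and overlap in the other 8, and control replicate 2 is the highest sample in all 10.

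The libraries differed in their content of marker transcripts. Recovered reads ranged from 17570335 to 18373707 per sample over the listed genes. Pan-adipocyte markers summed to between 349710 and 374718 normalized counts in control and, without overlap, to between 315029 and 345044 in AKO. Only 1 of these 8 markers had groups without overlap. Their mean log2(normalized count + 1) overlapped, at 14.60 in AKO replicate 1 and 14.50 in control replicate 2. Beige adipocyte markers, a list of 8 led by Ucp1, summed to between 30558 and 43996 in control and between 13795 and 17173 in AKO, and 7 of 8 did not overlap between groups. Macrophage markers, also 8 genes, summed to between 10595 and 14990 in control and between 13033 and 17930 in AKO. The targeted gene Nrg4 had 3128, 3102 and 3092 normalized counts in control replicates 1, 2 and 3 and 2577, 2627 and 2691 in AKO replicates 1, 2 and 3, a log2 fold change of -0.24 (SE 0.05, adjusted p = 0.298 in limma). By qPCR the study found almost no Nrg4 mRNA in iWAT of AKO mice. Whether the sequenced Nrg4 reads lie inside the deleted part cannot be read from counts per gene. Epithelial marker sums also varied widely, from 24.7 to 951 in control and from 148 to 1433 in AKO. Lymphocyte marker sums ran from 63.0 to 638 in control and from 58.8 to 840 in AKO. Skeletal muscle transcripts set the samples furthest apart, and control replicate 1 nearly lacked them. The 29 listed muscle markers summed to 794, 33321 and 18426 normalized counts in control replicates 1, 2 and 3 and to 24654, 94908 and 140176 in AKO replicates 1, 2 and 3. Acta1, the skeletal muscle actin, had 62.2, 6536 and 3498 in the control replicates and 4377, 15282 and 27039 in the AKO replicates, so that the groups overlapped.

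Gpi1 encodes glucose 6-phosphate isomerase, the first of the 10 enzymes in the order of the pathway. It had 6667, 9270 and 7812 normalized counts in control replicates 1 to 3 and 6465, 8333 and 7190 in AKO replicates 1 to 3. The ranges of the groups overlapped almost fully, and the log2 fold change was -0.11 (SE 0.13, adjusted p = 0.875 in limma).

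Pfkl and Pfkp encode the liver-type and platelet-type subunits of phosphofructokinase 1, the committing step of glycolysis. Pfkl lies at chr10:77986947-78010083 of GRCm38 (minus strand) and Ldhb, described later, at chr6:142490249-142507957 (minus strand). Pfkl had 3604, 5623 and 4265 normalized counts in the control replicates and 3006, 3523 and 3538 in the AKO replicates, or 4497 ± 1030 against 3356 ± 303 (SD, n = 3). The lowest control value lay just above the highest AKO value, and control replicate 2 stood well above the rest. The log2 fold change of Pfkl was -0.40 (SE 0.15), with an unadjusted p of 0.0308 and an adjusted p of 0.515 in limma. DESeq2 gave an adjusted p of 0.135, edgeR 0.494. Without control replicate 2 the limma log2 fold change of Pfkl was -0.23, and without control replicate 1, the sample with the fewest muscle reads, it was -0.55, neither with an adjusted p under 0.05. DESeq2 called Pfkl in the fit without control replicate 1, with an adjusted p of 0.00434 and 3.14% of 5315 genes called. It was also called with the muscle score as a covariate, given further on, and with a replicate block, at an adjusted p of 0.0157 and with 1.35% of genes called. DESeq2 did not call Pfkl with all samples and genotype alone, or without control replicate 2, 0.536% of genes being called in the latter. Nor did it without control replicate 3 or, in turn, AKO replicates 1, 2 and 3, at an adjusted p of 0.285, 0.798, 0.203 and 0.486. For Pfkp, control replicates had 1246, 1715 and 1415 normalized counts and AKO replicates 1352, 1343 and 1279. All AKO values fell inside the control range, with a log2 fold change of -0.13 (SE 0.11, adjusted p = 0.792 in limma).

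The ratio of Pfkl to Pfkp within a sample does not depend on how samples were scaled. It was 2.89, 3.28 and 3.01 in the control replicates and 2.22, 2.62 and 2.77 in the AKO replicates. Every AKO ratio lay below every control ratio, a log2 difference of -0.28 with a p of 0.1 in the 2-sided exact permutation test, the smallest p that 3 samples against 3 allow. With 1 sample left out the difference ran from -0.34, without AKO replicate 3, to -0.18, without AKO replicate 1.

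Aldoa encodes the aldolase that splits fructose 1,6-bisphosphate, the isoform of muscle and most other tissues, and had the highest level of the 10. Control replicates 1 to 3 had 31605, 47621 and 40787 normalized counts and AKO replicates 34840, 44784 and 42778. The groups overlapped almost entirely at 40004 ± 8037 in control and 40801 ± 5259 in AKO (SD, n = 3), with a log2 fold change of 0.04 (SE 0.16, adjusted p = 0.969 in limma). Tpi1, for the triose phosphate isomerase that interconverts the aldolase products, had 4675, 6053 and 5420 in control and 4993, 5296 and 5536 in AKO. Its log2 fold change of -0.02 had a 95% interval from -0.25 to 0.20.

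Gapdh and Pgk1 encode the enzymes that oxidize glyceraldehyde 3-phosphate and make the first ATP of the pathway, and both are reported as uncertain for a reason given further on. Gapdh had 215, 413 and 347 normalized counts in control and 233, 388 and 318 in AKO, a log2 fold change of -0.03 with a wide 95% interval from -0.64 to 0.57. Pgk1 had 165, 196 and 185 in control and 156, 185 and 177 in AKO, a log2 fold change of -0.07 with an interval from -0.34 to 0.20. In neither gene did the groups separate, and Gapdh varied most of the 10 among control samples, with a coefficient of variation of 31.1%.

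Pkm encodes pyruvate kinase of muscle and most other tissues, which makes pyruvate and the second ATP. It had 5653, 8814 and 7339 normalized counts in control and 5986, 8632 and 7273 in AKO. Both groups covered nearly the same range, with a log2 fold change of 0.01 (SE 0.18) and a 95% interval from -0.40 to 0.43. Counts per gene do not separate its spliced forms M1 and M2.

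Ldha and Ldhb encode the A and B subunits of lactate dehydrogenase, and their transcripts had different patterns. Ldha had 10351, 14431 and 13534 normalized counts in control and 11696, 13143 and 12550 in AKO, and all AKO values lay inside the control range. Its log2 fold change was -0.02 (SE 0.12, adjusted p = 0.979 in limma). Ldhb had 1397, 1818 and 1334 in control and 951, 1013 and 1066 in AKO, or 1516 ± 264 against 1010 ± 57.9 (SD, n = 3). No AKO sample reached the lowest control sample, and the spread within AKO was small beside the distance between the groups. The log2 fold change of Ldhb was -0.57 (SE 0.12), with an unadjusted p of 0.0013 and an adjusted p of 0.266 in limma. The adjusted p was 0.28 in edgeR and 0.00103 in DESeq2, so the call depended on the tool. In DESeq2 it passed in each of the 9 fits run, also without each sample in turn, and in limma and edgeR in none. Among genes with an adjusted p, 1.41% of 11728 were called without control replicate 3. Without AKO replicates 1, 2 and 3 it was 1.02% of 15253, 1.37% of 8202 and 0.573% of 13973. Leaving out control replicate 1 gave a limma log2 fold change of -0.63 and leaving out control replicate 2, the highest, gave -0.44.

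Within each sample the ratio of Ldha to Ldhb was 7.41, 7.94 and 10.1 in the control replicates and 12.3, 13.0 and 11.8 in the AKO replicates. The ratios did not overlap, with a log2 difference of 0.55 and a p of 0.1 in the 2-sided exact permutation test, again the smallest possible. Per length of exonic sequence, Ldhb made up 22.1%, 21.0% and 17.2% of the 2 subunit transcripts in control and at most 15.2% in each AKO sample. Per kb of the longest principal transcript it made up 15.5%, 14.6% and 11.8% in control and at most 10.3% in AKO. Ldha was the main transcript in every sample. Beige and pan-adipocyte marker sums, given before, also had no overlap between groups, though just 1 of 8 pan-adipocyte markers separated the groups by itself. The part of either in the Ldhb and Pfkl values was not tested.

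**Figure D2:**
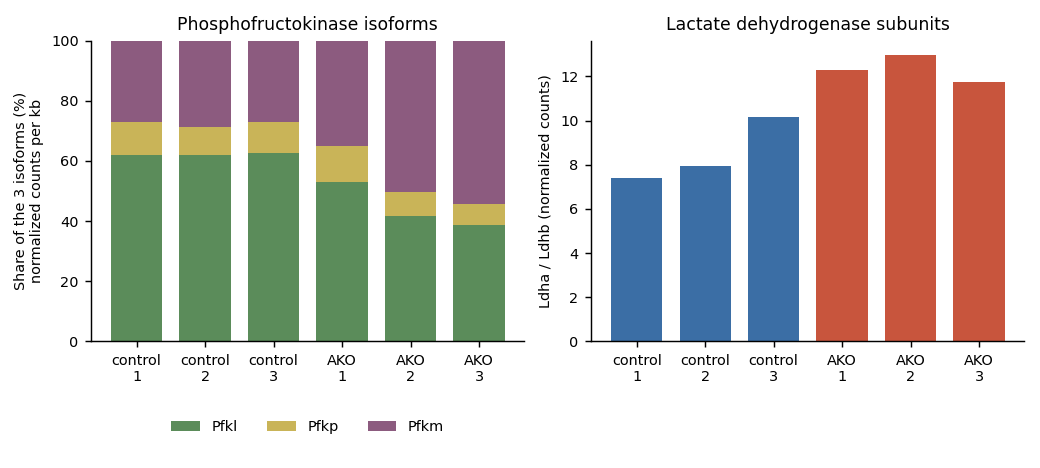
Shares of Pfkl, Pfkp and Pfkm in their sum of normalized counts per kb of exonic sequence (left, y axis in percent) and the ratio of Ldha to Ldhb normalized counts (right, y axis from 0) in each of the 6 samples (x axis), with no error since each bar is 1 sample. Ldha to Ldhb ratios are 7.41 to 10.1 in control and 11.8 to 13.0 in AKO, and the Pfkm share is higher in all 3 AKO samples.

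The promoters of the Pfkl and Pfkp pair and the Ldha and Ldhb pair are shown because within each pair 1 member separated the groups and its partner did not. The windows are RefSeq promoters of build GRCm38.p6, from 250 bases before to 50 bases after a transcript start, each written 5′ to 3′ on the strand of its gene. Capitals mark ACGTG and GCGTG on either strand (CACGT and CACGC on the other), the short core that hypoxia-inducible factors bind. ACGTG is also part of the CACGTG box bound by Myc and other factors. Ldha has 2 such windows, of which the upstream one is given. It is at chr7:46845554-46845853 (plus strand), Ldhb at chr6:142507908-142508207 (minus strand), Pfkl at chr10:78009758-78010057 (minus strand) and Pfkp at chr13:6648722-6649021 (minus strand).
Ldha: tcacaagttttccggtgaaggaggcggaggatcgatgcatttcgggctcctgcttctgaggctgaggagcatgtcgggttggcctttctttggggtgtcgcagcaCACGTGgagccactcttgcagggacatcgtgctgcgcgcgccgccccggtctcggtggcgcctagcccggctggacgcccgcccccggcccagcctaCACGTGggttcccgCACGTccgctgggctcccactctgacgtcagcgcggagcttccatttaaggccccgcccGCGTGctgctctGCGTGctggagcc
Ldhb: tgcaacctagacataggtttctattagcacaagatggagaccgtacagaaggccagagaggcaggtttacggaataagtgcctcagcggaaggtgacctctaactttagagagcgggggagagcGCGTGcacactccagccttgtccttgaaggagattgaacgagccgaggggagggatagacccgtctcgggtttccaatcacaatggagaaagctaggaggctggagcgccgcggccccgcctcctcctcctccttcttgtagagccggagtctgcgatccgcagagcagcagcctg
Pfkl: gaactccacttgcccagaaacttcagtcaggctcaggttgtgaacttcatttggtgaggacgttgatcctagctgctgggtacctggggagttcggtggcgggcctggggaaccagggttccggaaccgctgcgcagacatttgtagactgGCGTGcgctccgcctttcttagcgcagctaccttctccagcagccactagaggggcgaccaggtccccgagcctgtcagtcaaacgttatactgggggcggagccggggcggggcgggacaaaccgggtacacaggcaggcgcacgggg
Pfkp: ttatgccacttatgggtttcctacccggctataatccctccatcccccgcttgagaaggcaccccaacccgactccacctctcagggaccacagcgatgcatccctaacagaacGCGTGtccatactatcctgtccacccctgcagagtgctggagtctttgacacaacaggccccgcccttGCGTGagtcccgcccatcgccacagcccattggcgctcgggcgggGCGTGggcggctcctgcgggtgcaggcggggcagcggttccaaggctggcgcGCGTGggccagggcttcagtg
The Ldha window shown held ACGTG at 3 sites, of which 2 are full CACGTG boxes, and GCGTG at 2 sites. The other Ldha window, not shown, held 0 ACGTG and 2 GCGTG sites. Ldhb and Pfkl each held 1 GCGTG site and no ACGTG, while Pfkp held 4 GCGTG sites. Of the 14 promoter windows of the 10 enzymes, 71.4% held at least 1 of either motif, against 43.8% of all 32851 promoter windows. ACGTG was in 42.9% of the enzyme windows against 19.6% of all, and GCGTG in 42.9% against 32.4%. Overlapping windows of Aldoa hold the same ACGTG site, which is counted in each. Enzyme windows were also richer in CpG, with a median of 21 CpG against 7, and both motifs hold a CpG. A match of letters describes the sequence and shows no bound factor.

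Genes of the other steps, isoforms and transporters add the rest of the pathway. Of 33 such genes, 29 had values and 26 passed the filter on low values, a mean of 10 normalized counts, and limma called 0 of the 26. An unadjusted p under 0.05 was reached by 2 that were lower, Slc16a1 and Ldhd, and 3 that were higher, Eno3, Pfkm and Pgam2, where 4.41% of all genes had such a p and were higher. DESeq2 called 1, Slc16a1, and edgeR called 0.

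Transcripts of glucose entry and the first phosphorylation had nearly equal values in both groups. Slc2a4, the insulin-responsive glucose transporter GLUT4, had 7511 ± 586 normalized counts in control and 7558 ± 378 in AKO, and Hk2, the insulin-responsive hexokinase, had 3363 ± 108 and 3279 ± 146 (SD, n = 3). Intervals for the log2 fold change were -0.17 to 0.19 for Slc2a4 and -0.18 to 0.10 for Hk2. Slc2a1 (GLUT1) and Hk1 had intervals of -0.09 to 0.27 and -0.24 to 0.14.

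Lactate exit and use held the lowest p-value of the other genes. Slc16a1 encodes the lactate and pyruvate transporter MCT1 and had 1187, 1445 and 1102 normalized counts in control and 835, 696 and 862 in AKO. Its groups did not overlap and its log2 fold change was -0.64 (SE 0.12, adjusted p = 0.227 in limma), with an adjusted p of 0.000307 in DESeq2 and 0.234 in edgeR. Ldhd, the mitochondrial D-lactate dehydrogenase, had 952, 1019 and 925 in control and 798, 780 and 817 in AKO without overlap, a log2 fold change of -0.27 (SE 0.07, adjusted p = 0.315 in limma). Of its exonic bases 42.2% overlap Znrf1, so reads of those genes may be mixed. Slc16a3, the transporter MCT4 of glycolytic muscle, had 31.1, 86.0 and 51.8 in control and 53.8, 126 and 197 in AKO.

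Muscle isoforms of 3 steps followed the order of the muscle markers. Pfkm, the muscle phosphofructokinase, had 790, 1297 and 925 normalized counts in control and 988, 2126 and 2484 in AKO. Its log2 fold change was 0.82 (adjusted p = 0.531 in limma). Pgam2, the muscle phosphoglycerate mutase, had 31.1, 271 and 161 in control and 168, 540 and 930 in AKO. Eno3, the muscle enolase, had 131, 725 and 414 in control and 557, 1782 and 2617 in AKO. The lowest sample for each was control replicate 1 and the highest AKO replicate 3, and the groups overlapped. Per kb of exonic sequence, Pfkm made up 27.2%, 28.6% and 27.1% of the 3 phosphofructokinase transcripts in control and 34.9%, 50.3% and 54.3% in AKO. Pfkl made up 62.1%, 62.0% and 62.6% in control and 53.2%, 41.7% and 38.7% in AKO. These shares depended on the length used. With the longest principal transcript in place of the merged exonic sequence, Pfkm made up 17.8%, 19.0% and 17.8% in control and 23.3%, 36.8% and 40.7% in AKO. Pfkl had the largest share in all 6 samples on that length, as it had the most normalized counts, while on exonic length Pfkm had a larger share than Pfkl in AKO replicates 2 and 3. With either length the Pfkm shares did not overlap between groups and were higher in AKO.

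To set the enzymes against muscle RNA, a muscle score was taken in each sample as the mean log2(normalized count + 1) of the 29 markers. It was 2.95, 8.41 and 7.22 in control replicates 1 to 3 and 7.67, 8.98 and 9.39 in AKO replicates 1 to 3. Over the 6 samples Pfkm, Pgam2 and Eno3 ranked exactly as the score did, with Spearman's rho of 1 and a p of 0.00278 in the exact permutation test, adjusted p = 0.00278 over the 3 genes. Their Pearson's r was 0.78, 0.96 and 0.93, and 0.96, 0.96 and 0.95 without the 2 samples farthest from the median score, control replicate 1 and AKO replicate 3. Aldoa had the highest r of the 10 enzymes at 0.82, with an exact permutation p of 0.0306 and 0.233 adjusted over the 10, and a rho of 0.71 with an exact p of 0.136, adjusted p = 0.705. Without the 2 farthest samples the r of Aldoa was 0.63, that of Ldha fell from 0.75 to 0.26 and that of Tpi1 from 0.73 to 0.26. It fell for all the others except Gpi1, which went from 0.48 to 0.54, and Ldhb, from -0.30 to -0.01. Ldhb had an r of -0.30 (exact p = 0.6) and a rho of -0.31 (exact p = 0.564), and none of the 10 passed after adjustment. Control replicate 1 had Acta1 at 62.2 normalized counts and 5 of the 29 muscle markers at 0. It had 31605 for Aldoa, 10351 for Ldha and 5653 for Pkm, for each the lowest value of the 6 samples.

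**Figure D3:**
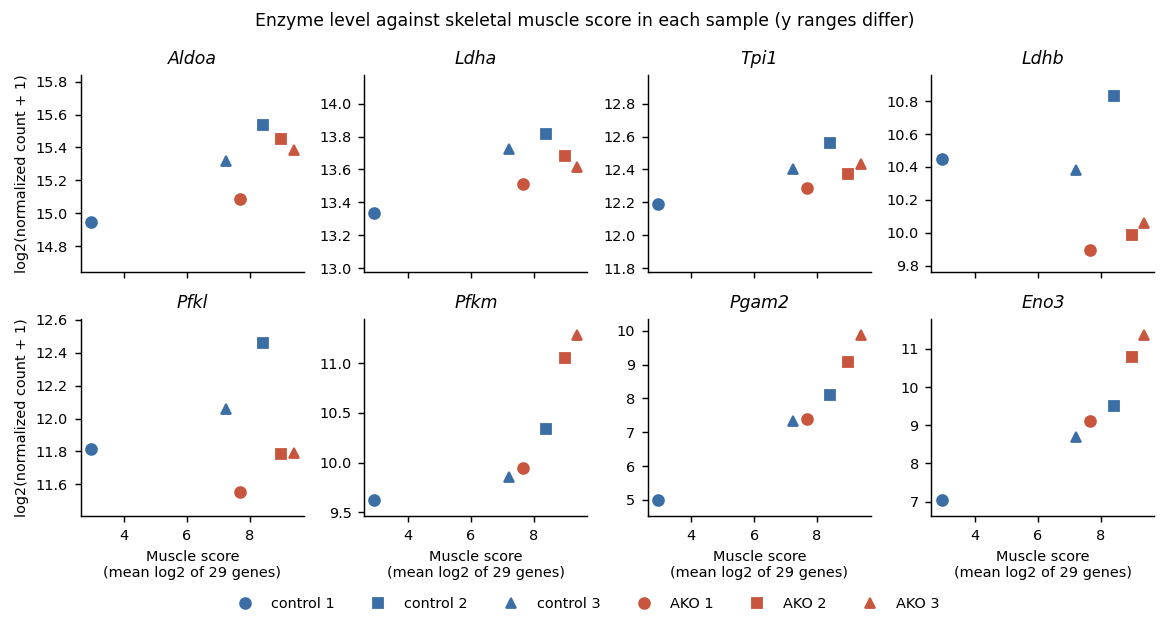
log2(normalized count + 1) of 5 of the enzymes and of the muscle isoforms Pfkm, Pgam2 and Eno3 (y axis, range differs between panels) against the muscle score of each sample (x axis, mean log2 of 29 markers), with 1 symbol per sample. Muscle isoforms rank with the score across both groups, while in the Ldhb and Pfkl panels the 3 AKO samples lie under the control samples.

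Within groups most of the 10 enzymes had the same low and high samples. Control replicate 2 was the highest sample for 10 of 10, control replicate 1 was the lowest control sample for 9 and AKO replicate 1 the lowest AKO sample for 9. The exceptions among the low samples were Ldhb, lowest in control replicate 3, and Pfkp, lowest in AKO replicate 3 of the AKO samples. The highest AKO sample was replicate 2 for 6 of the 10, replicate 3 for 3 and replicate 1 for 1, Pfkp. Summed over the 10 enzymes, normalized counts were 65577, 95954 and 82439 in the control replicates and 69676, 86642 and 81706 in the AKO replicates. Control replicate 1 lay farthest from its group mean in the muscle score. After each group was centred on its mean, the exact permutation p adjusted over the 10 ran from 0.0926 to 0.528. The centred r of the muscle isoforms Pfkm, Pgam2 and Eno3 was 0.64, 0.93 and 0.90. For 9 of the 10 enzymes the centred r with the muscle score was above 0.8, with a median of 0.88. The same held for 9.85% of all 13855 genes, whose median was 0.05, and for 3 of the 26 other glycolysis genes, whose median was 0.29. Against a score of the 8 beige markers the median centred r of the 10 was 0.49, and against the pan-adipocyte score it was -0.74. Over all genes these medians were 0.04 and -0.03, and 6.71% of all genes had an r above 0.8 for the beige score. Ldhb differed from the other 9 in this description, with the highest centred r of the 10 for the beige score, 0.93, and the lowest for the muscle score, 0.60. The transporter gene Slc16a1 had 0.88 for the beige and 0.30 for the muscle score, and Slc2a4 had 0.64 and 0.93. These 6 points share libraries and scaling, leave few degrees of freedom after centring, and are given as a description.

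With the muscle score as a covariate in limma all 10 log2 fold changes were negative, against 48.2% of all genes, with a median of -0.28 against 0.01. Aldoa then had -0.24 and Pkm -0.28, both positive without the covariate. Pfkl had -0.66 and Ldhb -0.70, and limma's adjusted p ran from 0.147 to 0.549 over the 10. The muscle isoforms Pfkm, Pgam2 and Eno3 had 0.40, 0.40 and 0.75 with the covariate, against 0.82, 1.97 and 2.01 from genotype alone. No gene passed in this fit (0.0%), where 7 of the 10 had an unadjusted p under 0.05 and were lower, against 6.96% of all genes. DESeq2 with the same covariate called 3.53% of the 5637 genes that kept an adjusted p, which Gapdh and Pgk1 did not. It called 3 of the 10, Pfkl at an adjusted p of 2.85e-06, Ldhb at 0.000378 and Ldha at 0.0455. The score was itself measured in these samples and was higher on average in AKO, so that genotype and muscle RNA are only in part separate in this fit. Whether muscle RNA accounts for the values of any enzyme was not tested.

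**Figure D4:**
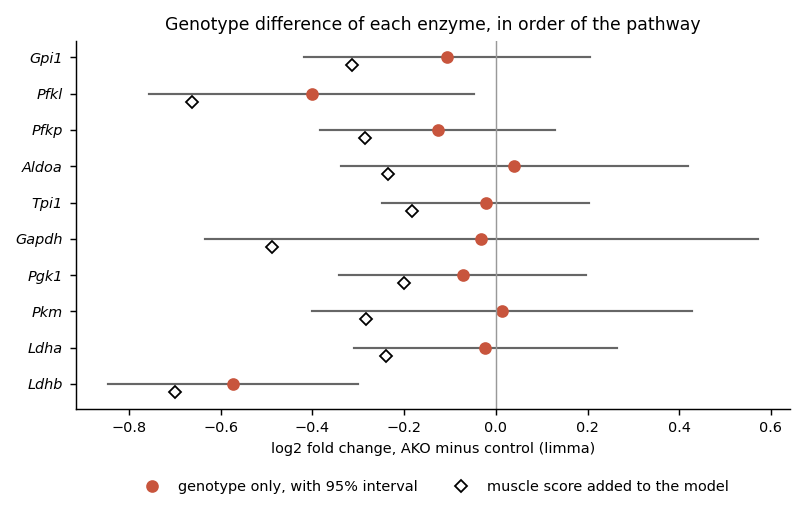
log2 fold change of AKO minus control in limma for the 10 enzymes in pathway order (y axis), as filled points with 95% intervals from the genotype alone and as open diamonds with the muscle score added. Pfkl and Ldhb have intervals below 0 before adjustment for the number of genes tested, and all 10 diamonds lie below 0.

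Levels between enzymes were compared per kb of exonic sequence, merged over all transcripts of a gene. Aldoa led with 10783 normalized counts per kb in control, followed by Ldha at 3859, Tpi1 at 1955, Pkm at 1453, Gpi1 at 1227, Ldhb at 966 and Pfkl at 674. Mean ± SD ranges overlapped between each neighbouring pair from Tpi1 to Pfkl, and Aldoa, Ldha and Tpi1 were apart from each other. Lower still were Pfkp at 109 ± 17.7, Pgk1 at 81.0 ± 7.05 and Gapdh at 78.6 ± 24.4 (SD, n = 3), and the range of Gapdh overlapped those of both Pgk1 and Pfkp. Per kb of the longest principal transcript all levels were higher, and the order of 2 pairs turned, with Pfkl at 1206 above Ldhb at 1163 and Gapdh at 229 above Pgk1 at 99.6. Pfkp was at 352 on that length. On both lengths Aldoa and Ldha led, and Pfkp, Gapdh and Pgk1 were the lowest 3 of the 10, below Hk2 at 563 per kb of exonic and 610.0 per kb of transcript sequence.

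Of those low genes, Gapdh and Pgk1 have much of their sequence elsewhere in the annotation too, and Pfkp less. Of all windows of 50 bases along the Gapdh transcript 82.5% were also found in transcripts of other annotated genes, 222 of them, and for Pgk1 the share was 68.0% over 5 genes. Pgam1 and Eno1, the widely expressed mutase and enolase, had shares of 41.5% and 72.2% and levels of only 42.8 and 0.58 per kb. Shares were 34.4% for Pkm, 27.0% for Ldhb, 25.3% for Gpi1, 17.1% for Ldha and for Pfkp, 13.9% for Aldoa and 7.51% for Tpi1, and 0.0543% for Pfkl. The 1 gene that shares windows with Ldhb, Gm5514, had no values in the table. How reads that map to several genes were counted is not given in the sources used here, and whether it lowers these levels was not tested. Differences between groups of Gapdh, Pgk1, Pgam1 and Eno1 rest on the reads that were assigned, and no use of Gapdh as a reference gene is made here.

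**Figure D5:**
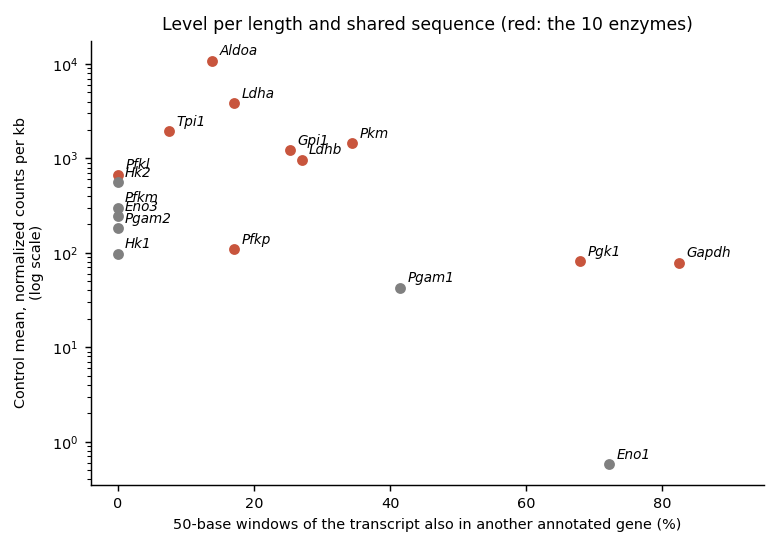
Control mean level in normalized counts per kb of exonic sequence (y axis, log scale, n = 3) against the share of 50-base transcript windows also present in another annotated gene (x axis, percent) for the 10 enzymes in red and 7 further glycolysis genes in grey. Gapdh, Pgk1 and Eno1 have the largest shares, 82.5%, 68.0% and 72.2%, and lie low, and Pfkp and Hk1 are low as well with shares of 17.1% and 0%.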

How the data were processed

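RNA of whole iWAT from 6 samples, 3 per genotype, was sequenced. The authors mapped reads to GRCm38.p6 (mm10) by STAR, assigned them to GENCODE genes by featureCounts and deposited counts divided by DESeq2 size factors, a normalized signal with 1 column per sample; read length, strand and the treatment of reads mapping to several genes are not given in the sources used here. Columns with log2 fold changes and p-values of the authors' own comparison, deposited beside them, were not used. In each column 100% of the values were whole multiples of 1 step (tolerance 0.001 reads), which gave back the reads. Since the deposited values are not counts, the main test was limma 3.58.1 (trend, R 4.3.3) on log2(value + 1) over 13855 genes, those whose mean reached 10, control against AKO, with Benjamini-Hochberg adjustment over all of them and all 6 samples in 1 fit. edgeR 4.0.16 (quasi-likelihood, TMM) and DESeq2 1.42.0 on the recovered reads were alternatives, with other pseudocounts and filters, a replicate block, a muscle score covariate and leaving out each sample. Shares of genes called in DESeq2 are over the genes given an adjusted p in that fit, from 5315 to 16217 genes. Scripts were tested on simulated data. Replicates differed by more than counting noise, so each counts as 1 sample, and p-values measure the spread between these pools. Intervals are 95% from limma. Lengths, positions and shared windows come from a GENCODE annotation of GRCm38 in which 2 gene IDs carry the symbol Aldoa. Promoters come from the RefSeq table of GRCm38.p6, which held at least 1 window for each of the 10 enzymes. No protein sequences were used here. Members, lists and the alternatives were chosen with earlier results of these data known. The text names the 10 enzymes, Nrg4, Acta1, muscle isoforms, hexokinases, the main transporters and isoforms of steps with no member, genes called, the 3 lowest p-values per direction of the other glycolysis list and up to 3 markers per list; Znrf1 and Gm5514 were named after their overlap was seen.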

Additional observations from a re-analysis of the deposited data

How the results depend on the processing

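Pfkl, Pfkp and Ldhb, like the other glycolysis genes named with a p-value, kept their direction in each alternative run, and no enzyme was called in limma or edgeR. The limma log2 fold change of Pfkp was close to none, -0.0038, without control replicate 2, and -0.23 without control replicate 1. Over all genes the number called, 2 in the limma fit with genotype alone, was 149 in DESeq2, 6 where each sample had to reach 10 normalized counts, 11 with robust variance shrinkage, 0 with the muscle score, 2 with a replicate block, and 0 to 3 with 1 sample left out. Of the 10 enzymes DESeq2 called 1, and 1 of the other glycolysis genes. DESeq2 alternatives chosen after seeing the data called 3 enzymes with the muscle score (Pfkl, Ldha and Ldhb, 3.53% of 5637 genes called). They called 2 with the replicate block (Pfkl and Ldhb, 1.35%) and 2 without control replicate 1 (Pfkl and Ldhb, 3.14% of 5315). Without each other sample they called 1, Ldhb (0.536% to 1.41%). Gapdh and Pgk1 had no adjusted p with the muscle score or without control replicate 1, nor had Pgk1 without AKO replicate 2. With the muscle score Aldoa and Pkm turned negative, at -0.24 and -0.28 in limma and -0.23 and -0.28 in DESeq2 (log2 fold change). Leaving out 1 sample in limma gave log2 fold changes of -0.22 to 0.014 for Gpi1, -0.12 to 0.18 for Aldoa, -0.12 to 0.066 for Tpi1, -0.30 to 0.17 for Gapdh, -0.14 to 0.00077 for Pgk1, -0.16 to 0.16 for Pkm and -0.17 to 0.073 for Ldha. In DESeq2 the sign turned without control replicate 1 for Aldoa (-0.12) and Pkm (-0.15); without control replicate 2 for Gpi1 (0.020), Tpi1 (0.065), Gapdh (0.16) and Ldha (0.063); without control replicate 3 for Ldha (0.0095); without AKO replicate 1 for Tpi1 (0.0078), Gapdh (0.12) and Ldha (0.0073); without AKO replicate 2 for Aldoa (-0.046) and Pkm (-0.13); and without AKO replicate 3 for Aldoa (-0.0063). The r of Ldhb with the muscle score was 0.60 with groups centred, against -0.30. Replicate numbers do not pair these samples (correlation of deviations from group means 0.14, -0.35 and 0.24 for numbers 1, 2 and 3), and the replicate block left the limma log2 fold changes of the enzymes as they were, with Ldhb at -0.57 and an adjusted p of 0.131. Levels and shares per kb of the longest principal transcript were also added after seeing the data. The cause of these changes was not tested. Reads per sample were 162 to 190 for Pgk1 and 214 to 397 for Gapdh, the fewest of the 10 enzymes, and 3 samples per group, each a pool of 2 mice, limit the precision.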
